A study of Mus musculus with 8 samples.

Results

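Hox genes were examined in RNA of intestinal epithelial cells from the mouse colon. The 38 members were listed by gene name from the 4 Hox clusters, and each was found among the 55487 genes of the deposited table. The study holds 8 libraries from C57BL/6J mice, 4 wild type (WT) and 4 labelled PIM1+/-, a heterozygous genotype of the serine/threonine kinase gene Pim1; no treatment is named. The sources used here do not give the colon segment, the age of the mice or the structure of the altered allele. Nothing in the labels ties the libraries of a genotype to separate mice. The p-values below therefore describe the spread among these libraries, which may be technical. Values are TPM, transcript abundances corrected for length and scaled to a fixed sum per library, and hold no information on read depth. Where 4 values are listed for a genotype, they are those of replicates 1 to 4 in that order.

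Hox genes encode homeodomain transcription factors and lie in 4 clusters, Hoxa, Hoxb, Hoxc and Hoxd. Within a cluster the genes are numbered by paralog group, and their order along the chromosome mirrors the order in which they are used from head to tail in the embryo. Low-numbered genes act anteriorly, and the highest-numbered ones, above all paralog 13, mark the hindgut and the tail end of the body. The adult gut keeps part of this regional pattern, and Hoxb13 is known as a gene of the distal colon. Below, paralogs 1 to 3 are called anterior, 4 to 8 central and 9 to 13 posterior.

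Pim1 itself ran from 5.72 to 8.83 TPM in WT and from 5.64 to 7.97 TPM in PIM1+/- libraries (limma adjusted p = 0.411), so its transcript did not separate the genotypes and the libraries are named by their labels. Each library had 12582 to 12850 genes at 1 TPM or more. All 10 epithelial markers examined were high enough to test, and 6 of them rose. Among all 12760 genes tested with limma, 8.93% rose and 8.54% fell at an adjusted p under 0.05. Of the 15 fibroblast markers, Lum was at 0 in every library, Col1a1 reached at most 0.06 TPM and Pdgfra at most 0.04 TPM, and the smooth muscle myosin gene Myh11 reached at most 0.07 TPM. Of 5 fibroblast markers tested 2 rose and 1 fell, Fbln1 (1.02 ± 0.126 to 4.66 ± 1.24 TPM, adjusted p = 0.000531), Fn1 (0.515 ± 0.264 to 5.19 ± 2.87 TPM, adjusted p = 0.00251) and Gsn (128 ± 13.4 to 96.9 ± 4.76 TPM, adjusted p = 0.00899). The list's sum, most of it Gsn, ran from 123 to 152 TPM in WT and from 115 to 117 TPM in PIM1+/- libraries. Markers of T and NK cells summed to 14.6 to 29.5 TPM in WT and to 50.7 to 120 TPM in PIM1+/- libraries, with 10 of 12 tested higher, and myeloid markers to 27.9 to 35.4 and 51.3 to 65.6 TPM, with 3 of 6 tested higher. Fn1, the T cell markers Cd8a and Itgae, and Mcpt1 of the myeloid list stayed below 1 TPM in every WT library. They were tested through their PIM1+/- values alone, which tilts these counts towards higher. Smooth muscle (0 of 3 tested called, 31.2 to 60.4 TPM in WT and 33.6 to 42.8 TPM in PIM1+/- libraries), endothelial (0 of 2, 4.49 to 6.73 and 4.05 to 5.14 TPM) and B and plasma cell markers (0 of 3, 144 to 184 and 160.0 to 190.3 TPM) overlapped between genotypes in their sums, and 0 of 13 neuron and glia markers reached the level for testing (2.31 to 6.37 and 1.44 to 2.48 TPM in sum). Lmod1, on the smooth muscle list, reached 1 TPM in too few libraries to be tested. It measured 12.3, 27.0, 0.02 and 14.1 TPM in the WT libraries and 0 in every PIM1+/- library.

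A pair of libraries lay at the ends of their genotypes for many Hox genes. WT replicate 3 was the lowest WT library for 8 of the 8 genes from Hoxb2 to Hoxb9, and the highest WT library for 6 of the 8 tested posterior genes. For Hoxb9 the margin was small, 21.02 TPM against 21.13 TPM in WT replicate 1. PIM1+/- replicate 1 was the lowest of its genotype for 7 of those 8 posterior genes and the highest for 7 of the 8 genes from Hoxb2 to Hoxb9. The share of all genes for which these libraries were lowest or highest was not computed. WT replicate 3 also lay apart for Car1, a colonic gene outside the Hox clusters. Car1 was at 4639 TPM there, against 7542 to 8365 TPM in the other WT libraries. Fold changes and counts of Hox genes without this pair of libraries are given below.

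Of the 38 members, 21 reached 1 TPM in at least 4 libraries and were tested, 10 were detected below that level and 7 were listed at 0 in every library. The Hoxc cluster (chromosome 15, 102921103 to 103036852, GRCm38) was close to silent. Its members Hoxc5, Hoxc8, Hoxc10, Hoxc11, Hoxc12 and Hoxc13 were at 0 throughout, as was Hoxb1. Hoxc4, Hoxc6 and Hoxc9 each had a value above 0 in a single library, of at most 0.05 TPM. Most of the Hoxd cluster (chromosome 2, 74668310 to 74765142) was low as well. Hoxd1, Hoxd3, Hoxd8, Hoxd9, Hoxd10 and Hoxd12 stayed below the level for testing, as did Hoxa4. Among these Hoxd10 had the highest WT level, at 1.39, 0.67, 0.99 and 1.53 TPM, against 0.21, 0.15, 0.69 and 0.59 TPM in PIM1+/- libraries. Its ranges overlapped by a narrow margin, 0.67 against 0.69 TPM. Hoxa4 ran from 0.81 to 1.26 TPM in WT and from 0.46 to 0.95 TPM in PIM1+/- libraries, Hoxd12 from 0.67 to 1.39 and from 0.2 to 0.76 TPM, and Hoxd8 from 0.21 to 0.86 and from 0.3 to 1.21 TPM, all with overlap. Hoxd9, Hoxd3 and Hoxd1 stayed at or below 0.54, 0.27 and 0.18 TPM.

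In WT epithelium Hoxb13 was by far the most abundant Hox transcript, at 31.0 to 37.0% of all Hox TPM. Its lowest WT library, at 103 TPM, lay above the highest value of any other member, 36.6 TPM for Hoxa10. Hoxa10 (32.9 ± 2.81 TPM, mean ± SD, n = 4 throughout) and Hoxa9 (32.7 ± 1.94 TPM) followed and could not be ordered within their spread. Hoxa13, Hoxa3, Hoxb9, Hoxa7, Hoxd13 and Hoxb6 came next, with means from 23.3 down to 15.7 TPM and each range overlapping that of its neighbour. All other members had WT means of 7.34 TPM or less. In PIM1+/- libraries Hoxb13 still had the highest mean, at 12.8 to 23.5% of Hox TPM. Hoxb6 (27.6 ± 2.12 TPM), Hoxb9 (26.9 ± 3.82 TPM), Hoxa9 and Hoxa10 followed. The range of Hoxb6, 25.9 to 30.7 TPM, overlapped those of the 3 genes after it, so these could not be ordered within their spread. It overlapped that of Hoxb13 as well. In PIM1+/- replicate 1 Hoxb13 (26.6 TPM) lay below Hoxb9 (30.8 TPM) and Hoxb6 (30.7 TPM). Summed over all members, Hox transcripts came to 331 to 371 TPM in WT and 207 to 290 TPM in PIM1+/- libraries, and the ranges did not overlap. Posterior genes made up 72.4% of the WT sum and 57.8% of the PIM1+/- sum, and central genes 18.2% and 30.4%.

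**Figure D1:**
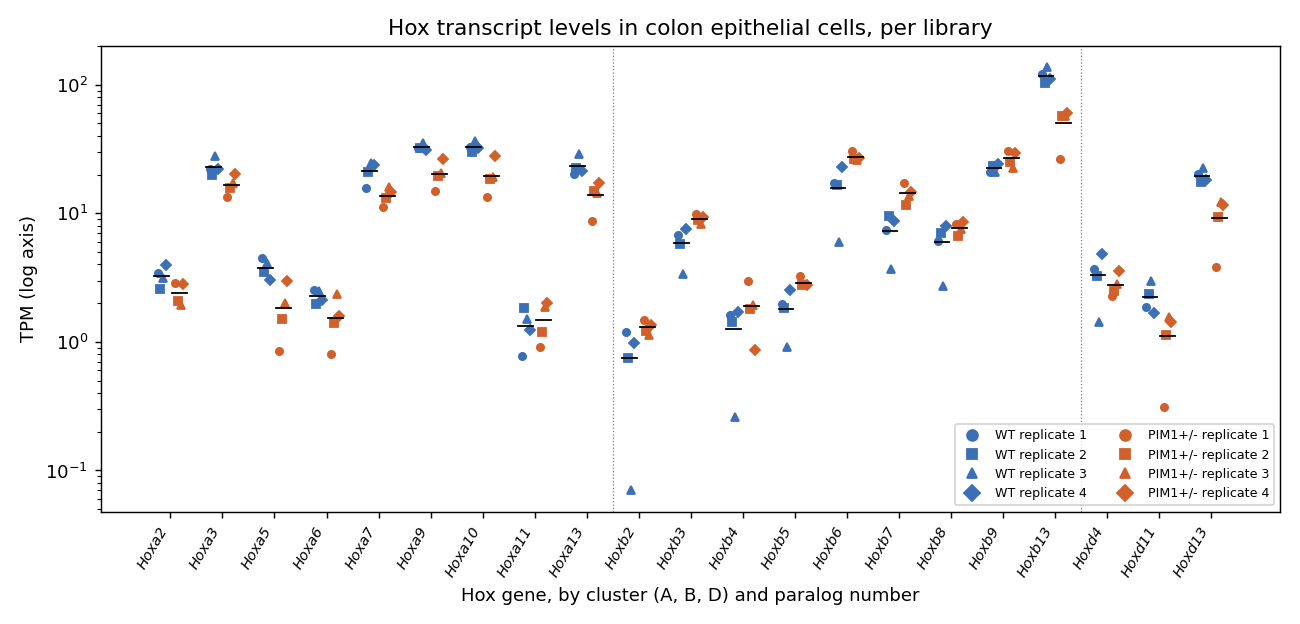
TPM of the 21 tested Hox genes (log axis) in each library, grouped by cluster (dotted lines) and paralog number, with black bars at the mean of 4 libraries per genotype. Hoxb13 has the highest mean in both genotypes. WT replicate 3 (blue triangles) is lowest of the WT libraries from Hoxb2 to Hoxb9, and PIM1+/- replicate 1 (orange circles) is lowest of its genotype for Hoxa13, Hoxb13 and Hoxd13.

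The comparison of PIM1+/- with WT asked which Hox transcripts differ between the genotypes. Of the 21 tested members 8 fell, Hoxa3, Hoxa5, Hoxa7, Hoxa9, Hoxa10, Hoxa13, Hoxb13 and Hoxd13, and 1 rose, Hoxb7. Among all 12760 genes tested with limma, 8.54% fell and 8.93% rose at an adjusted p under 0.05, 17.5% in either direction. With the mean log2(TPM + 1) of 31 markers of other cell types added to the model, which correlates with genotype at 0.949 over the 8 libraries, 0 members and 0 of all genes passed (2 members at an unadjusted p under 0.05). The 31 include Cd8a, Itgae, Fn1 and Mcpt1, which were tested through PIM1+/- libraries alone, and this tilts their mean towards genotype. They also include Gsn and Xbp1 (128 and 150 TPM in WT), whose source among the cells was not tested. Genotype and marker level cannot be told apart in these libraries. The libraries of the genotypes did not overlap for 7 tested members that were lower and 4 that were higher, where all tested genes gave 11.6% lower and 11.9% higher. The members' median log2 fold change was -0.32, against -0.01 over all genes tested. Most members entered the test through both genotypes, while Hoxb2 reached 1 TPM in 4 PIM1+/- libraries and 1 WT library.

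Other scalings moved the balance of calls over all genes from 51.1% higher to 37.9% (upper quartile) and 35.4% (rescaled without mitochondrially encoded transcripts). Each left 8 Hox members lower and 1 higher.

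Of the tested members the paralog 13 genes Hoxb13 and Hoxd13 had the lowest log2 fold changes. Hoxb13 (ENSMUSG00000049604, chromosome 11, 96194316 to 96197447, plus strand) lies 74.0 kb from Hoxb9, away from the rest of its cluster. It measured 120, 103, 137 and 112 TPM in the WT libraries and 26.6, 57.5, 56.7 and 60.5 TPM in the PIM1+/- libraries. Every PIM1+/- library lay below every WT library, and replicate 1 lay far below the other 3. The mean went from 118 ± 14.7 to 50.3 ± 15.9 TPM, a ratio of 0.426, and the log2 fold change on the log2(TPM + 1) scale was -1.27 ± 0.24 (SE, limma adjusted p = 0.00746). Without PIM1+/- replicate 1 it was -0.999 (adjusted p = 0.000423). Without that library the other posterior genes that fell also had smaller differences, Hoxd13 at -0.77, Hoxa13 at -0.55, Hoxa9 at -0.55 and Hoxa10 at -0.59, each past the threshold (adjusted p = 0.00453, 0.0256, 0.0138 and 0.0283).

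Hoxd13 (chromosome 2, 74668310 to 74671599), a gene of limb and hindgut patterning, measured 20.1, 17.6, 22.5 and 18.2 TPM in the WT libraries and 3.82, 9.36, 12.2 and 11.7 TPM in the PIM1+/- libraries. The genotypes did not overlap, and the log2 fold change was -1.10 ± 0.28 (adjusted p = 0.0289). Hoxa13 (chromosome 6, 52257694 to 52260880), which patterns the hindgut and the genital tract, measured 20.2, 22.4, 29.2 and 21.5 TPM in the WT libraries and 8.71, 14.9, 14.4 and 17.1 TPM in the PIM1+/- libraries. Again no PIM1+/- library reached the lowest WT library, and the log2 fold change was -0.74 ± 0.19 (adjusted p = 0.0277). Together the 3 expressed paralog 13 genes summed to 143 to 189 TPM in WT and 39.1 to 89.3 TPM in PIM1+/- libraries. The call of Hoxd13 was lost on leaving out PIM1+/- replicate 2 or any WT library but replicate 2 (highest adjusted p = 0.0715), and that of Hoxa13 without WT replicate 3 or 4 (highest 0.0685). With no filter on low values both were lost (0.0848 and 0.0795), while Hoxb13 passed in all 8 of those fits and without a filter (0.0299).

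Since paralog 13 genes of separate clusters fell, the sequence before the start sites of Hoxa13 and Hoxd13 is shown (the RefSeq table used here has no entry for Hoxb13), as given by RefSeq on GRCm38.p6 (the 250 bases before the start, 5′ to 3′ on the gene's strand), beside that of Hoxa7, which among the 7 called members with a window was the one that holds TTTATG. Capitals mark matches on either strand to CCAAT (the CCAAT box), TATAAA (the TATA box) and TTTATG (a core bound by CDX factors, the intestinal homeodomain proteins that are known to control Hox genes in the embryo).
Hoxa13 (chr6:52260881-52261130, minus strand): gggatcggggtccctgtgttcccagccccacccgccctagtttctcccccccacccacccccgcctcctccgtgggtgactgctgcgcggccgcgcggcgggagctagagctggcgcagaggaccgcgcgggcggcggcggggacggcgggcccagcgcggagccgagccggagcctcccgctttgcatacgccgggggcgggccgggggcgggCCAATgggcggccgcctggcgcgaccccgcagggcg
Hoxd13 (chr2:74667975-74668224, plus strand): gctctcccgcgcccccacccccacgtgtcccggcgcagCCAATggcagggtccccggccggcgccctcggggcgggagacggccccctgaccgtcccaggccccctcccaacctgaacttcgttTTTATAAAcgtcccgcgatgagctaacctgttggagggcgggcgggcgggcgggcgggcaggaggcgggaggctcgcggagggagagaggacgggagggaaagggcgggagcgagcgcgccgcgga
Hoxa7 (chr6:52218574-52218823, minus strand): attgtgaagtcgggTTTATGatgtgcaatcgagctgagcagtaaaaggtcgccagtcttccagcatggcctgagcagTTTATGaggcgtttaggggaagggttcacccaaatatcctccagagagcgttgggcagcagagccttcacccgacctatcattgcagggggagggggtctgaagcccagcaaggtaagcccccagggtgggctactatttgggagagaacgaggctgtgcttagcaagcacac

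The Hoxa13 and Hoxd13 windows were rich in G and C (80.0% and 74.4%, with 35 and 31 CpG), above the median of all 32851 RefSeq promoter windows of this length (52.4%, with 6 CpG). Each holds 1 CCAAT, and Hoxd13 holds TATAAA on both strands in a single overlapping stretch. The Hoxa7 window, at 54.8% G and C, holds TTTATG 2 times. The RefSeq table matched 22 of the 38 members, with 24 windows. Of these 24 windows 14 held CCAAT, 4 TATAAA and 5 TTTATG, where 33.9%, 12.4% and 10.8% of all windows did. Windows for Hoxa7, Hoxb8, Hoxd3, Hoxd4 and Hoxd11 held TTTATG. No member window held CCAATAAA, a form bound by HOX13 proteins, or the core of the interferon response element, which 1.02% and 2.98% of all windows held. The RefSeq start of Hoxd13 lies upstream of the GENCODE start given above, and the Hoxa7 window lies inside the longer GENCODE model of Hoxa7 (52214491 to 52221854), so its TTTATG matches are not upstream of that model's start. Motifs were searched on both strands, and the matches describe letters in the windows only.

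The Hoxa cluster (chromosome 6, 52162417 to 52260880) was lower nearly throughout. Of its 9 tested members 6 fell, and 8 had a log2 fold change below 0. The posterior pair Hoxa9 and Hoxa10, which act in body patterning and in blood cell progenitors, both fell. Hoxa9 measured 32.5, 32.1, 35.4 and 30.9 TPM in the WT libraries and 15.04, 19.4, 20.5 and 26.6 TPM in the PIM1+/- libraries. Its log2 fold change was -0.68 ± 0.14 (adjusted p = 0.0122), it passed in each of the 8 fits that leave out a library, and it passed without a filter (adjusted p = 0.0401). Hoxa10 measured 33.1, 29.8, 36.6 and 32.1 TPM in the WT libraries and 13.3, 18.6, 19.0 and 27.8 TPM in the PIM1+/- libraries (log2 fold change -0.75 ± 0.18, adjusted p = 0.0208). For both genes all WT libraries lay above all PIM1+/- libraries, of which replicate 4 was the highest.

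Of the central and anterior Hoxa genes, Hoxa5, known from lung and gut development, measured 4.49, 3.51, 4.11 and 3.04 TPM in the WT libraries and 0.85, 1.5, 1.99 and 3.0 TPM in the PIM1+/- libraries. The genotypes were separated only by 3.0 against 3.04 TPM, and the log2 fold change was -0.80 ± 0.22 (adjusted p = 0.0369). Hoxa7 went from 21.2 ± 3.94 to 13.7 ± 2.02 TPM (-0.58 ± 0.15, adjusted p = 0.0269), with WT replicate 1 at 15.7 TPM just below the highest PIM1+/- library at 15.9 TPM. Hoxa3, which patterns the pharyngeal region, went from 23.0 ± 3.37 to 16.7 ± 2.88 TPM (-0.45 ± 0.13, adjusted p = 0.0482), and its ranges overlapped too. Hoxa3 also lost its call without limma's trend (0.0617). Hoxa2 (-0.32 ± 0.14) and Hoxa6 (-0.41 ± 0.18) did not pass, both at an adjusted p of 0.16. Hoxa11 was low and did not pass either (1.34 ± 0.449 and 1.49 ± 0.519 TPM, adjusted p = 0.80).

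The Hoxa calls other than that of Hoxa9 depended on single libraries. Hoxa10 lost its call without WT replicate 1 or 3 or PIM1+/- replicate 2 (highest adjusted p = 0.0557), Hoxa7 without PIM1+/- replicate 1 or 2 or any WT library but replicate 1 (0.0722), Hoxa3 without any library but WT replicate 2 or PIM1+/- replicate 4 (0.106), and Hoxa5 without any library but PIM1+/- replicate 4 (0.095). Without a filter on low values Hoxa3, Hoxa5, Hoxa7 and Hoxa10 had adjusted p of 0.114, 0.106, 0.074 and 0.0642.

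In the Hoxb cluster (chromosome 11, 96194316 to 96368256) the genes from Hoxb2 to Hoxb9 had the opposite sign to Hoxb13. All 8 had a log2 fold change above 0, from 0.24 to 0.92, of which Hoxb7 passed the test. With the markers of other cell types in the model all 8 turned below 0, from -0.06 for Hoxb9 to -1.29 for Hoxb8, and none passed, while Hoxb13 (-0.83) and Hoxd13 (-1.04) were still below 0 without passing. Hoxb7 (chromosome 11, 96286623 to 96290162) measured 7.40, 9.51, 3.72 and 8.72 TPM in the WT libraries and 17.1, 11.7, 13.6 and 14.6 TPM in the PIM1+/- libraries. No WT library reached the lowest PIM1+/- library, and the log2 fold change was 0.92 ± 0.24 (adjusted p = 0.0272). Its neighbour Hoxb6 measured 17.1, 16.7, 5.95 and 22.9 TPM in the WT libraries and 30.7, 26.6, 25.9 and 27.1 TPM in the PIM1+/- libraries. The genotypes did not overlap, but WT replicate 3 lay far below the other WT libraries and the test was not passed (0.91 ± 0.32, adjusted p = 0.0821). Without WT replicate 3 the Hoxb6 difference was smaller, 0.53, and passed (adjusted p = 0.0245). The other genes of this group were also closer to 0 without that library. Hoxb2, Hoxb4 and Hoxb8 went from 0.44, 0.37 and 0.40 to 0.22, 0.11 and 0.12, Hoxb3 and Hoxb5 from 0.59 and 0.50 to 0.39 and 0.33, Hoxb9 from 0.24 to 0.21, and Hoxb7 from 0.92 to 0.67 (adjusted p = 0.0174).

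Hoxb3 (5.87 ± 1.81 and 9.09 ± 0.737 TPM, 0.59 ± 0.19, adjusted p = 0.0591) and Hoxb5 (1.81 ± 0.671 and 2.90 ± 0.231 TPM, 0.50 ± 0.18, adjusted p = 0.0848) did not overlap between genotypes and did not pass. Hoxb9, the most abundant of this group in WT, was at 22.5 ± 1.62 and 26.9 ± 3.82 TPM (0.24 ± 0.10, adjusted p = 0.138). Hoxb2, Hoxb4 and Hoxb8 overlapped between genotypes and had adjusted p from 0.20 to 0.42. In WT replicate 3 Hoxb2 was at 0.07 and Hoxb4 at 0.26 TPM, against 0.75 to 1.20 and 1.42 to 1.70 TPM in the other WT libraries. Hoxb7 lost its call without WT replicate 1 or PIM1+/- replicate 1, 3 or 4 (highest adjusted p = 0.068) and without a filter (0.0798). Hoxb3 passed without WT replicate 4 (0.0456).

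Of the Hoxd cluster only Hoxd4, Hoxd11 and Hoxd13 were tested. Hoxd11, a posterior gene of limb and kidney patterning, measured 1.86, 2.36, 2.96 and 1.68 TPM in the WT libraries and 0.31, 1.14, 1.57 and 1.43 TPM in the PIM1+/- libraries. Its genotypes did not overlap, but it did not pass (-0.64 ± 0.23, adjusted p = 0.0868). Hoxd4 overlapped (-0.13 ± 0.25, adjusted p = 0.76), and 52.3% of its annotated exon bases are shared with Hoxd3 and another gene model, so the split of reads between them is uncertain.

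**Figure D2:**
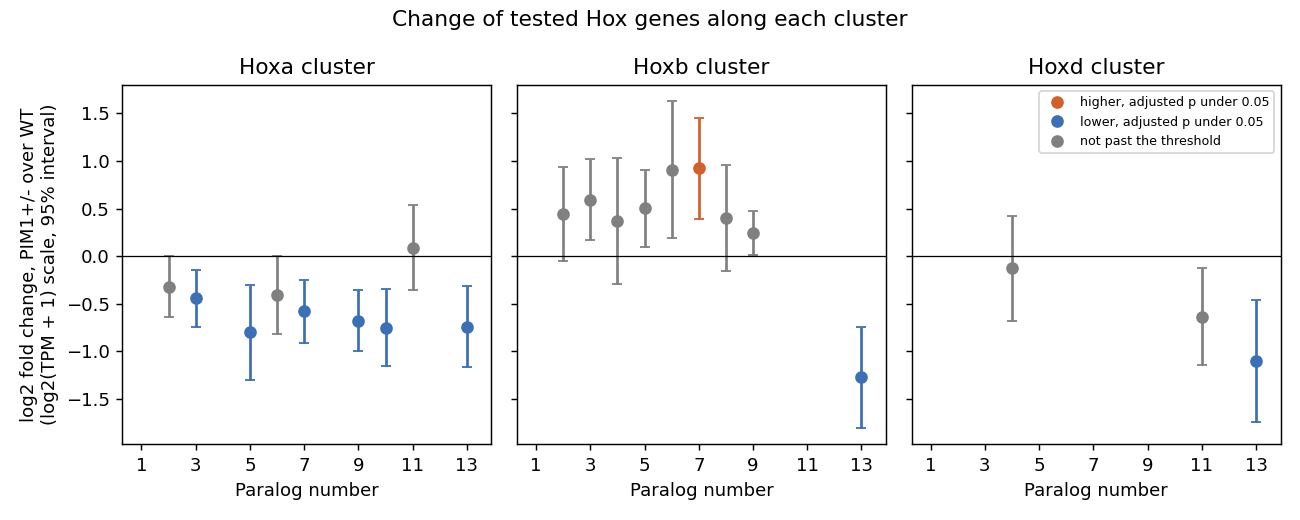
Log2 fold change of PIM1+/- over WT on the log2(TPM + 1) scale for the 21 tested Hox genes, by paralog number in the Hoxa, Hoxb and Hoxd clusters, with 95% intervals from limma. Hoxa genes lie below 0 except Hoxa11, Hoxb2 to Hoxb9 lie above 0, and Hoxb13 and Hoxd13 lie lowest, at -1.27 and -1.10.

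By class, 5 of the 8 tested posterior genes fell and none rose, 2 of 9 central genes fell and 1 rose, and 1 of 4 anterior genes fell and none rose. Over all genes tested, 8.54% fell and 8.93% rose. The central class was split by cluster, with Hoxa5 and Hoxa7 lower and Hoxb7 higher. The posterior class held the exceptions Hoxb9 and Hoxa11, whose log2 fold changes of 0.24 and 0.09 were above 0 without passing. Without WT replicate 3, 2 of 21 tested members fell and 2 rose, where 5.39% of all genes tested fell and 6.97% rose. Without PIM1+/- replicate 1, 5 fell and 0 rose, where 6.13% of all genes tested fell and 6.28% rose. Without both libraries (a fit added once the values were known) 4 fell and 2 rose, where 4.44% of all genes tested fell and 5.37% rose. The number that fell was also 4 when WT replicate 1 was left out, and 3 when WT replicate 4 or PIM1+/- replicate 2 was, and the number that rose was 0 without WT replicate 1 or PIM1+/- replicate 3 or 4 and 2 without WT replicate 4. Across the fits that leave out 1 library, 4.77% to 8.25% of all genes tested fell and 5.9% to 8% rose.

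**Figure D3:**
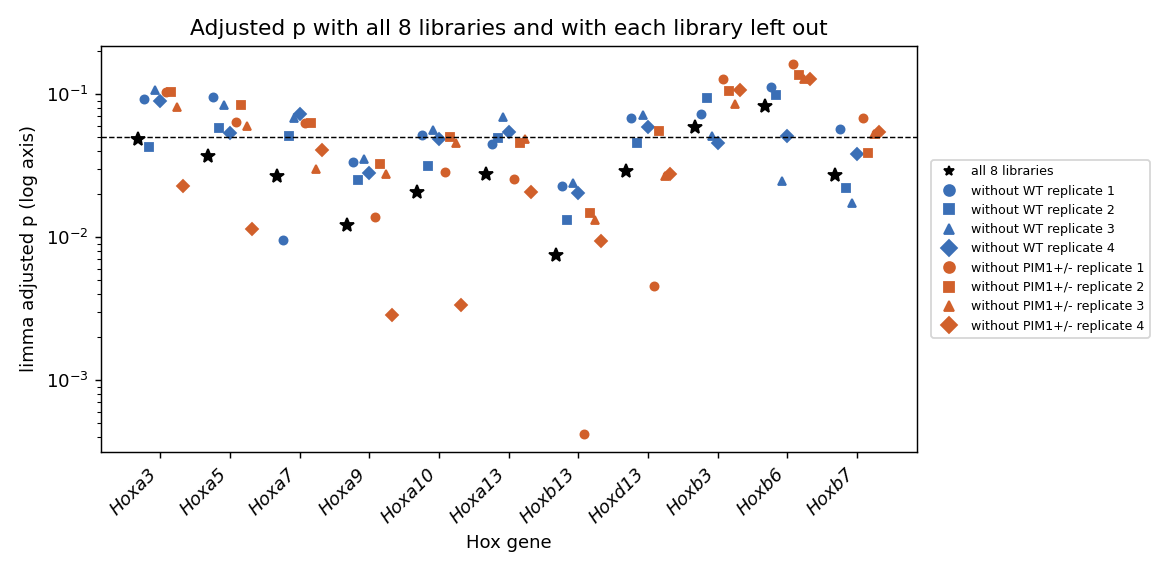
Limma adjusted p (log axis) of the 9 Hox genes that passed and of Hoxb3 and Hoxb6, with all 8 libraries (stars) and with each library left out in turn (colour for genotype, shape for replicate), with the threshold of 0.05 dashed. Hoxa9 and Hoxb13 stay under the line in every fit, with highest values of 0.0352 and 0.0238.

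The sums of the groups were also set side by side by library. The summed TPM of Hoxb2 to Hoxb8 was 42.2, 43.1, 17 and 52.4 in WT libraries and 73.6, 59.6, 61.1 and 64.6 in PIM1+/- libraries. The summed paralog 13 genes were at 161, 143, 189 and 152 TPM in the WT libraries and at 39.1, 81.8, 83.4 and 89.3 TPM in the PIM1+/- libraries. WT replicate 3 thus had the lowest Hoxb2 to Hoxb8 sum and the highest paralog 13 sum of all libraries, and PIM1+/- replicate 1 the reverse. No correlation is given, since the libraries fall into 2 groups of 4.

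**Figure D4:**
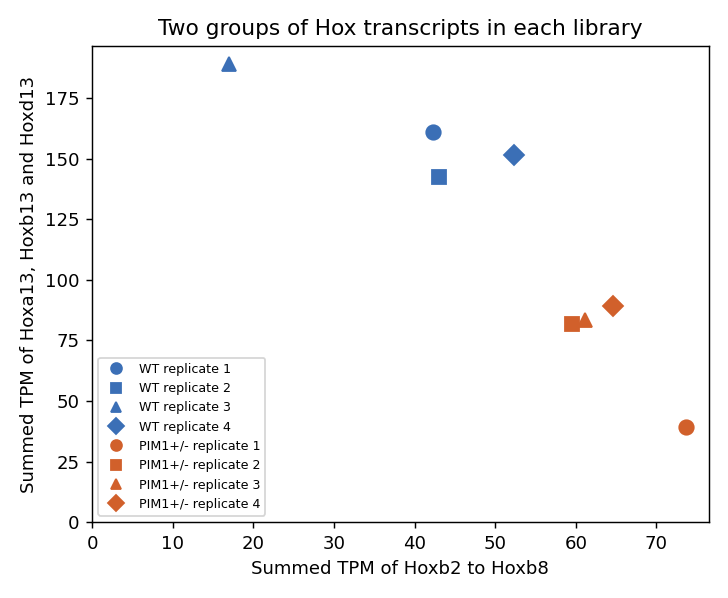
Summed TPM of Hoxa13, Hoxb13 and Hoxd13 against summed TPM of Hoxb2 to Hoxb8, with 1 point per library (colour for genotype, shape for replicate). WT replicate 3 lies at the upper left (17 and 189 TPM) and PIM1+/- replicate 1 at the lower right (73.6 and 39.1 TPM).

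Some transcripts that lie beside the posterior genes were lower too, while others did not pass. Hoxa11os, an RNA antisense to Hoxa11 (chromosome 6, 52244393 to 52249799), measured 109.0, 90.4, 136 and 109 TPM in the WT libraries and 31.5, 53.7, 55.7 and 59.3 TPM in the PIM1+/- libraries (-1.16 ± 0.20, adjusted p = 0.00481). It was about as abundant as Hoxb13 and did not overlap between genotypes. Its exons cover 35.0% of the Hoxa11 exon bases, and no strand setting is given in the sources used here, so reads of the pair cannot be told apart with certainty. Hottip, a long non-coding RNA 1.9 kb from Hoxa13 that is known to act on posterior Hoxa genes, went from 13.8 ± 2.71 to 6.81 ± 2.02 TPM (-0.95 ± 0.21, adjusted p = 0.0162). Ttll6, a tubulin glutamylase gene 28.9 kb from Hoxb13, measured 24.6, 24.3, 29.0 and 30.6 TPM in the WT libraries and 5.97, 9.98, 10.7 and 10.6 TPM in the PIM1+/- libraries (-1.47 ± 0.17, adjusted p = 0.00069). All 3 passed in each of the 8 fits that leave out a library.

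Of 6 tested non-coding transcripts on the list 2 fell, Hoxa11os and Hottip, and none rose (median -0.32). For this list and the flanking genes below, the share over all genes tested was 8.54% lower and 8.93% higher. Gm27605, a short non-coding RNA between Hoxb13 and Hoxb9 that is not on the list and was chosen after its values were seen, fell as well (4.55 ± 1.37 to 1.72 ± 0.313 TPM, -1.0 ± 0.18, adjusted p = 0.00649). Hoxaas3, which runs antisense to Hoxa3 through Hoxa7, was at 13.8 ± 1.03 and 14.9 ± 2.80 TPM (adjusted p = 0.661), and Gm53, between Hoxb13 and Hoxb9, at 64.8 ± 5.78 and 56.4 ± 6.01 TPM (adjusted p = 0.167). Hoxaas3 and other antisense models cover 25.4% of the Hoxa3 and 20.4% of the Hoxa7 exon bases, so the same limit on strand holds there. It also holds for Hoxb3 and Hoxb2, where Hoxb3os covers 52.9% and 27.3% of the exon bases. Hoxb3os itself was listed at 0.84 TPM or less. The miRNA genes of the clusters and Hotair were at 0. Of 21 tested protein-coding genes on the list of flanking genes 1 fell, Ttll6, and 1 rose, Atp5g1, a mitochondrial ATP synthase subunit gene 118.6 kb from Hoxb13 (0.32 ± 0.06, adjusted p = 0.00644), with a median of -0.05.

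**Figure D5:**
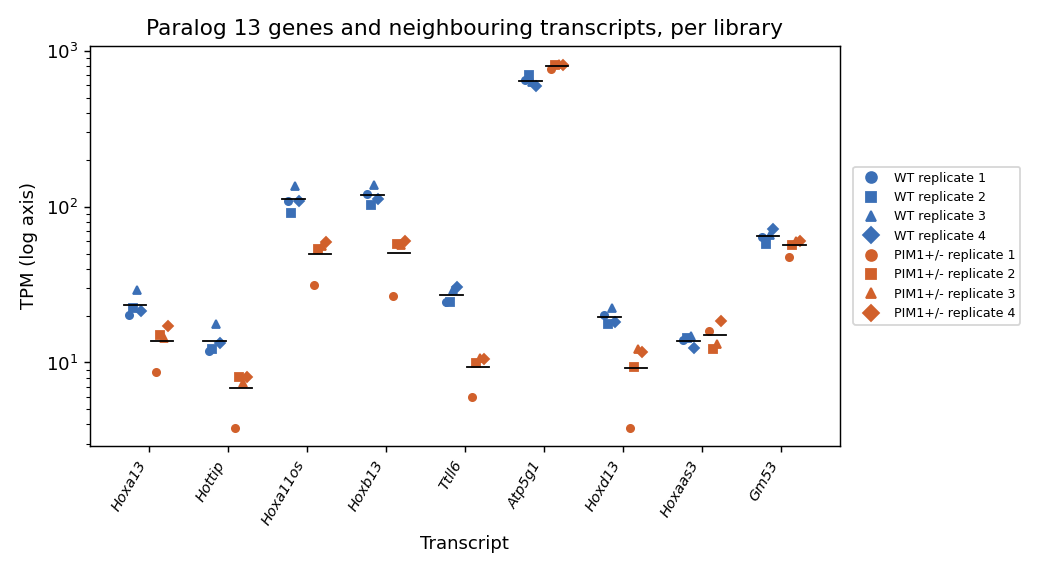
TPM (log axis) of the paralog 13 genes and of transcripts in or beside the clusters in each library, with black bars at the mean of 4 libraries per genotype. Hoxa13, Hottip, Hoxa11os, Hoxb13, Ttll6 and Hoxd13 are lower in PIM1+/- libraries with no overlap, while Hoxaas3 and Gm53 overlap.

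Genes that work with or upstream of Hox proteins were examined from lists. Their counts are to be read beside the 8.93% of all genes tested that rose and the 8.54% that fell. None of 5 tested cofactor genes passed, on a list of TALE homeodomain genes, whose products bind DNA together with Hox proteins, and of Pbxip1, whose product binds PBX proteins (among the 5 Pbx2, Pbxip1 and Pknox1, at -0.12 ± 0.11, -0.24 ± 0.10 and -0.12 ± 0.11, adjusted p = 0.496, 0.127 and 0.464). Of 14 tested ParaHox and intestinal identity factors 3 rose and 2 fell. Cdx2, the homeobox gene that sets intestinal identity, went from 95.2 ± 8.31 to 146 ± 6.36 TPM (0.62 ± 0.07, adjusted p = 0.000583), Foxa2 fell by 0.95 on the log2 scale and Foxa3 rose (0.48 ± 0.09). Cdx1, named after its values were seen, went the other way from Cdx2 (219 ± 5.72 to 189 ± 12.8 TPM, -0.21 ± 0.06, adjusted p = 0.0296), a call lost without any library but PIM1+/- replicate 4 (highest adjusted p = 0.0738). Of all genes tested 17.5% were called in either direction. Of 39 Polycomb and Trithorax genes, which hold Hox clusters silent or active, 1 rose and 2 fell. These were Phc2 (0.23 ± 0.06, adjusted p = 0.038), Pcgf2 (-0.46 ± 0.08, adjusted p = 0.00756) and Kmt2c (-0.26 ± 0.07, adjusted p = 0.0325). Phc2 lost its call without any library but WT replicate 2 or PIM1+/- replicate 2 (highest adjusted p = 0.0999), and Kmt2c without any but WT replicate 2 or PIM1+/- replicate 3 (0.0957).

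Regional genes of the gut were set beside the Hox genes, with the same shares over all genes tested (8.93% higher and 8.54% lower). Of 10 tested small intestinal enterocyte genes 4 rose and none fell (median 0.27), among them Fabp2, a fatty acid binding protein gene (0.64 ± 0.09, adjusted p = 0.00237), Ada (0.60 ± 0.11, adjusted p = 0.00574) and the alkaline phosphatase gene Alpi (0.88 ± 0.16, adjusted p = 0.00708). The list was split, since Sis (-0.58), Rbp2 (-0.35), Fabp6 and Mttp (each -0.18) and Apob (-0.03) were below 0 without passing. The ileal genes Fabp6 and Slc10a2, chosen after their values were seen, did not pass (adjusted p = 0.658 and 0.282). Of 10 colonic epithelium genes 3 rose and 2 fell (median -0.23). Car1 went from 7135 ± 1698 to 12859 ± 1529 TPM (0.88 ± 0.18, adjusted p = 0.0112), Car4, another carbonic anhydrase gene, fell by 0.85 on the log2 scale (adjusted p = 0.000269), and Fabp2 is on both lists. Whether these differences and those of the Hox genes share a source was not tested.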

How the data were processed

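RNA of colon intestinal epithelial cells had been extracted with TRIzol and sequenced in 8 libraries, per the labels' protocols. The deposited values were TPM per gene, quantified by the authors with RSEM per the series' design text. HISAT2, StringTie and edgeR, with no version or role, and the build GRCm38.p6 are listed in the submitters' processing notes. The sources used here do not give annotation release, strand setting, filters or depth, so no interval for counting error is given. TPM divides by length and fixes each library's sum, so reads of overlapping genes are split by estimation and a change in abundant transcripts shifts the rest. All per-sample columns were used (0 left out), matched to samples by genotype and replicate number.

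Log2(TPM + 1) was tested with limma 3.58.1 (R 4.3.3; moderated variances with a trend on mean level; two-sided) on the 12760 genes that reached 1 TPM in 4 or more of the 8 libraries, with Benjamini-Hochberg adjustment over all of them and a threshold of 0.05. The text accounts for all 38 Hox members and names, from each other list, the 3 members with the smallest p among those that passed, or the 3 most abundant where none did. Cell type marker lists are outside that rule. Genes outside it (Cdx1, Fabp6, Slc10a2, Sis, Rbp2, Mttp, Apob, Hoxaas3, Gm53, Gm27605 and the markers named) were chosen after their values were seen, as were the promoter motifs. Members and lists were chosen with earlier results of these data known. Listed names that matched no row are not analysed here, and 1 cofactor gene is not reported here. Gene positions are from GENCODE M21. Alternatives were a pseudocount of 0.1, a filter on the mean (5 TPM) or none, no trend, 2 other scalings, the replicate number as a block, a non-epithelial marker score (31 genes) as covariate, and leaving out each library. The test was checked on simulated data for PIM1+/- against WT with 12760 genes, where 91.6% of 95 genes changed 2-fold and 61% of 105 changed 1.5-fold were called and 4.43% of all calls were unchanged genes. With no gene changed, 0 were called. Noise there was independent between genes. Figures used matplotlib 3.10.9.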

Additional observations from a re-analysis of the deposited data

Results flagged for a closer look

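Single libraries far from the others of their genotype were searched for in 42 groups of 4 values (21 tested Hox genes in each genotype), by the gap of the highest or lowest value to its neighbour over the whole range. Chance alone gives about 1 in 20 such groups, and 2 were found, both in PIM1+/- replicate 1. Hoxb13 was at 26.61 TPM there, where the other 3 libraries ran from 56.7 to 60.5 TPM. Hoxb5 was at 3.24 TPM there, the highest of its genotype, where the others ran from 2.76 to 2.80 TPM.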

How the results depend on the processing

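Of the Hox members tested 8 were called lower and 1 higher, and of all genes 2229. A pseudocount of 0.1, a filter on the mean (5 TPM), limma without the trend and both other scalings gave 7 or 8 Hox members lower and 1 higher. Without a filter 2 were lower and 0 higher of 31 members tested (17 at an unadjusted p under 0.05), with 1439 genes called among 26705 tested. With the non-epithelial marker score as a covariate, which ran from 1.80 to 2.11 in WT and from 2.53 to 2.89 in PIM1+/- libraries, limma called 0 members lower, 0 higher and 0 genes, with 2 members and 802 genes at an unadjusted p under 0.05. In that fit the log2 fold change turned below 0 for Hoxa11 (-0.27), Hoxb2 (-0.56), Hoxb3 (-0.38), Hoxb4 (-0.50), Hoxb5 (-0.38), Hoxb6 (-0.92), Hoxb7 (-0.63), Hoxb8 (-1.29) and Hoxb9 (-0.0563), with adjusted p from 0.793 to 0.987, and changed sign for Pknox1 (0.0921), Slc10a2 (-1.33) and Hoxaas3 (-0.1943), with adjusted p from 0.866 to 0.976. The filter on level tilts the score towards genotype, as given above. The cause of these sign changes was not tested. Leaving out 1 library gave 2 to 8 members lower, 0 to 2 higher and 1374 to 2050 genes called. In those fits 4.77% to 8.25% of all genes tested were lower and 5.9% to 8% higher. Hoxa11 turned to -0.0389 without WT replicate 1 and -0.0082 without PIM1+/- replicate 4, Hoxd4 to 0.0412 without WT replicate 4, Fabp6 to 0.0014 without WT replicate 2 (-0.4499 without both libraries named next) and Hoxaas3 to -0.0102 without PIM1+/- replicate 4 (highest 0.1717). Without both WT replicate 3 and PIM1+/- replicate 1, 4 members were lower, 2 higher and 1217 genes called, Hoxb4 turned to -0.0544 (its highest value with 1 library left out was 0.5633) and Hoxa11 was at 0.2485. Deviations of same-numbered libraries correlated at -0.14, 0.03, -0.03 and -0.07, and those of other pairs from -0.12 to 0.10. These values gave no sign that the replicate numbers pair the libraries. With so few libraries they cannot exclude it. With the replicate block 6 members were lower, 2 higher (Hoxb3 gained, adjusted p = 0.0469, Hoxa3 and Hoxa5 lost, 0.0576 and 0.0858) and 1449 genes were called. TPM keeps no depth, so the precision of low members such as Hoxd10 is unknown.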
